A study of Mus musculus with 4 samples.

Results

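The 10 genes described here encode granule proteases and regulators of mast cells, and they were followed in cultured group 2 innate lymphoid cells (ILC2) with and without Ets1. They are the carboxypeptidase gene Cpa3, the chymase genes Mcpt1, Mcpt2, Mcpt4 and Cma1, the tryptase genes Tpsb2 and Tpsab1, the histidine decarboxylase gene Hdc, the receptor gene Kit and the transcription factor gene Gata2. They were picked by name, with the difference between the genotypes on these arrays already known, and make up 10 of the 18194 genes that have a probe set of 1 symbol. For that reason the values of the 10 genes between the genotypes are given as a description, without p-values. Where the text says which of the 10 passed a threshold, nothing is read from it. The 10 genes have 14 probe sets, and the brightest of each gene (highest mean of the 4 arrays) gives its main value.

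Transcript levels were measured with 1 Affymetrix array per sample in 2 Ets1-deleted samples and 2 littermate control samples, all from C57BL/6 mice. ILC2 are innate cells of barrier tissues that make type 2 cytokines, and the ETS1 protein is a DNA-binding regulator of lymphocyte genes. In both groups the culture lasted 2 weeks, with IL-7 and IL-33 over a layer of OP9-DL1 stromal cells, which display a Notch ligand, and ICOS-positive cells were sorted into lysis buffer. The labels do not say how or in which cells Ets1 was deleted, how old the mice were or whether animals were pooled. Nothing says that the arrays of a group come from separate animals or cultures, so the spread between them may be technical, and their number limits the precision.

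Mast cells store proteases in granules, bound to the negatively charged chains of the proteoglycan serglycin, together with histamine. Chymases, tryptases and carboxypeptidase A3 are the main granule proteases, and different tissues hold mast cells with different sets of them. The receptor KIT and the transcription factor GATA2 are needed for mast cells to form, and GATA2 binds DNA at GATA sequences. ILC2 use the related factor GATA3. ETS factors bind a GGAA core.

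Array medians lay between 96.5 and 97.71 intensity units, and a gene was tested where the mean of its brightest probe set reached the median of all probe set means, 97.97 intensity units. This left 10876 genes. Ets1 read 138.1 and 180.2 intensity units in the Ets1-deleted arrays and 1272 and 1231 in the controls. Gata3, the lineage factor of ILC2, read 3032 and 2828 intensity units in the Ets1-deleted arrays and 2807 and 2741 in the controls. All 16 measured ILC2 markers lay above the limit on both control arrays. In limma 8 of them rose, among them Thy1 (1.91), Gfi1 (2.00) and Arg1 (1.56 on the log2 scale), and 4 fell, among them Klrg1 (-1.60). Of all tested genes, 14.0% rose and 12.8% fell. Nothing is read from the marker count, since the list was chosen with earlier results of these data known. Of 6 defining mast cell markers, Kit and Cma1 were above the limit on all 4 arrays, Cpa3 on the 2 Ets1-deleted arrays, Tpsb2 on 3, Ms4a2 on 1 and Fcer1a on 0.

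Of the 10 genes, 8 were brighter on both Ets1-deleted arrays than on either control array, and none had both Ets1-deleted values under both control values on its brightest probe set. Among all 18194 named genes, 26.4% were brighter on both Ets1-deleted arrays than on either control array, 30.9% of those above the limit and 19.6% of those under it, and 53.1% were apart in either direction. In the limma fit over all tested genes, 8 of the 10 genes were bright enough to be tested and 7 of them passed an adjusted p of 0.05, all higher in the Ets1-deleted arrays, where 14.0% of all tested genes passed in that direction and 26.8% in either. Nothing is read from that count, since the genes were chosen on this contrast, and Cpa3 and Hdc reached the limit through their Ets1-deleted values alone. With 1 array left out, Cma1, Hdc and Gata2 missed the threshold without either control array (4 passed), Cma1 and Gata2 without Ets1-deleted replicate 2 (5 passed) and Hdc without Ets1-deleted replicate 1 (6 passed). The log2 differences of the 10 genes (Ets1-deleted minus control) had a median of 0.46, against -0.00085 over all named genes. In bulk RNA of this kind, more cells of a type and more RNA per cell cannot be told apart.

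The genes differ in how far they stand above the floor of the array summary, where values level off. None of the 10 was above the 75th percentile of probe set means (253 intensity units) in both groups. Mcpt1, Mcpt2, Cma1, Kit and Gata2 (5 genes) lay above the 97.97-unit limit in both groups. Cpa3, Mcpt4, Hdc and Tpsb2 (4 genes) had a group mean above the limit only in the Ets1-deleted arrays, and Tpsab1 (1 gene) was under it in both groups. Near the limit, Hdc and Tpsb2 passed with means of 104.7 and 98.5 intensity units, and Mcpt4 missed it with 95.4.

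**Figure D1:**
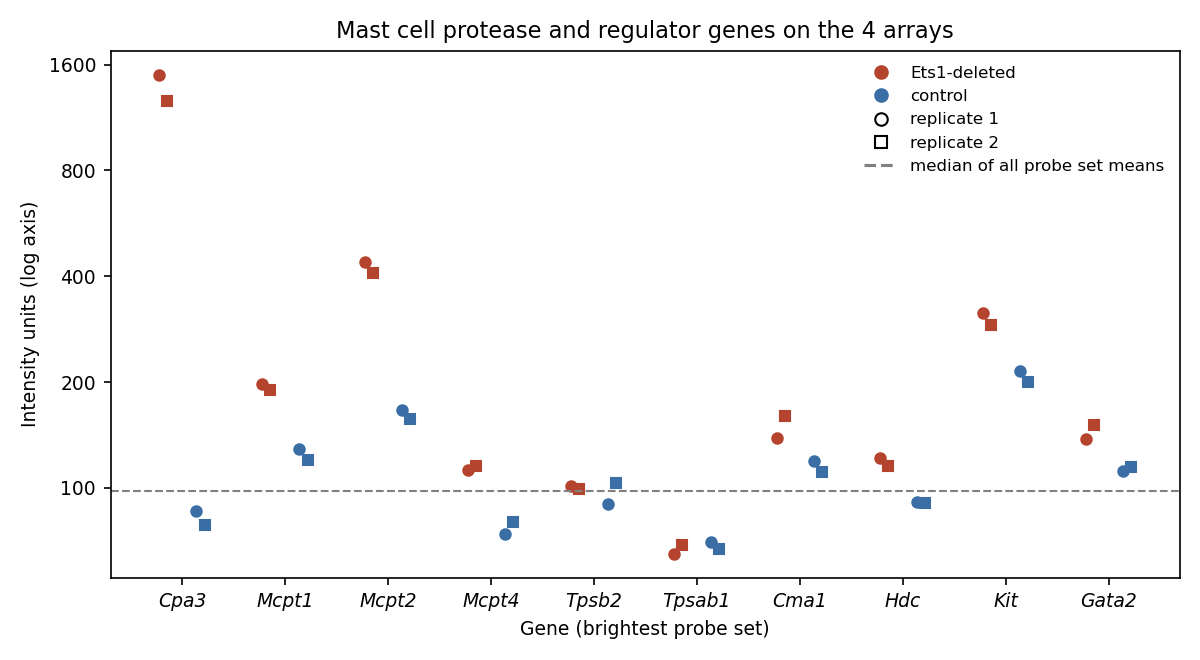
Intensity of the brightest probe set of each of the 10 genes (log axis, intensity units) on the 2 Ets1-deleted arrays (red, left of each pair) and the 2 control arrays (blue); circles are replicate 1, squares replicate 2, and the dashed line is the median of all probe set means. Cpa3 stands at 1497 and 1261 in Ets1-deleted and 85.9 and 78.3 in control, while the points of Tpsb2 and Tpsab1 overlap between the groups.

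Cpa3 encodes carboxypeptidase A3, which trims peptides from their C-terminal end and is stored with the chymases. Its single probe set, 1448730_at, read 1497 and 1261 intensity units in the Ets1-deleted arrays and 85.9 and 78.3 in the controls. Both control values were under the limit and both Ets1-deleted values were far above it, with no overlap. On the scale of rank among all 45101 probe sets of an array, Cpa3 stood at the percentiles 95.8 and 95.0 in the Ets1-deleted arrays and 42.4 and 35.5 in the controls. On the deposited scale the log2 difference was 4.07, or 16.8-fold. With each array's 5th percentile subtracted and values floored at 16 intensity units it was 5.68, or 51.3-fold. Because the control values are under the limit, neither number is a measured fold of the transcript. With any 1 array left out the log2 difference on the deposited scale lay between 3.94 and 4.19.

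The 250 bases before the start of Cpa3 are shown because this gene had the largest difference, with the letters GATAA and GGAA on either strand in capitals (RefSeq, GRCm38.p6, minus strand, chr3:20242182-20242431).
Cpa3: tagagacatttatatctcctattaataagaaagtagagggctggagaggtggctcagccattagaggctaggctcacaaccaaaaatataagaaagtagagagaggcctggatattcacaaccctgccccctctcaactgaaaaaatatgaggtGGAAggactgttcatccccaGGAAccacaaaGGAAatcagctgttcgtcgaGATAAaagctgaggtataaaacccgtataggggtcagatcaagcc
The window holds 1 GATAA, whose first base lies 45 bases before the start, and 3 GGAA, at 96, 76 and 65 bases before it. All 3 GGAA lie upstream of the GATAA.

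The 4 chymase genes lie in 1 cluster on chromosome 14. Mcpt1, Mcpt2 and Mcpt4 encode mouse mast cell proteases 1, 2 and 4, and Cma1 encodes mast cell protease 5; proteases 1 and 2 are known from mucosal mast cells, 4 and 5 from those of connective tissue. Mcpt2 (probe set 1449989_at) read 438.8 and 408.3 intensity units in the Ets1-deleted arrays and 166.99 and 156.6 in the controls. The log2 difference of Mcpt2 was 1.39 ± 0.11 (SE), 2.62-fold. Its values did not overlap between the groups and were above the limit on all 4 arrays.

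Mcpt1 (1422352_at) read 198.2 and 190.4 intensity units in the Ets1-deleted arrays and 128.9 and 120.4 in the controls, a log2 difference of 0.64 ± 0.11. Mcpt4 (1425967_a_at) read 112.5 and 115.2 in the Ets1-deleted arrays and 73.9 and 80.2 in the controls. Without the filter on dim genes Mcpt4 had a log2 difference of 0.56 ± 0.08. For both genes the lower Ets1-deleted value was above the higher control value. Cma1 (1449456_a_at) read 138.8 and 159.9 in the Ets1-deleted arrays and 119.3 and 110.9 in the controls, a log2 difference of 0.37 ± 0.12. With any 1 array left out the difference of Cma1 lay between 0.27 and 0.48. With the array floor subtracted, the log2 difference was 1.01 for Mcpt1, 0.66 for Cma1 and 1.80 for Mcpt2. These genes are close relatives, and whether their probes also bind each other's transcripts was not tested.

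The windows before the starts of Cma1, Mcpt1 and Mcpt4 are shown because these neighbours can be compared letter by letter, with capitals as for Cpa3 (RefSeq, GRCm38.p6; Cma1 chr14:55944676-55944925, minus strand; Mcpt1 chr14:56017714-56017963, plus strand; Mcpt4 chr14:56062311-56062560, minus strand).
Cma1: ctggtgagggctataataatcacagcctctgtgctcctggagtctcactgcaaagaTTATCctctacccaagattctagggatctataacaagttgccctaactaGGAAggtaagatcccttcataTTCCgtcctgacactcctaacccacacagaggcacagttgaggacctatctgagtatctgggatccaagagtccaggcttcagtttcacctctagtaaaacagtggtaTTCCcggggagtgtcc
Mcpt1: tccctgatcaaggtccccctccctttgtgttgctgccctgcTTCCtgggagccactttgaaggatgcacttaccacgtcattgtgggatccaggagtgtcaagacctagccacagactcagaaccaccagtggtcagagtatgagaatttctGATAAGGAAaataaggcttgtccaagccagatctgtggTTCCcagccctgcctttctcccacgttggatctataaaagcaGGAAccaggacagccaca
Mcpt4: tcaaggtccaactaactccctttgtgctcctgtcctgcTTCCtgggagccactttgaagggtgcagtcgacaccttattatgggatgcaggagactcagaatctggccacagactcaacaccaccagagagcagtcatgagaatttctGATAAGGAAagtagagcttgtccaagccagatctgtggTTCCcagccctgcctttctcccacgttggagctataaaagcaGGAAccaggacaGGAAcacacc
Mcpt1 and Mcpt4 have the same base at 207 of 246 aligned positions (82.8% of the 250-base window), so their matches are not independent. Cma1 shares 56.0% with Mcpt1 and 54.0% with Mcpt4, and 54.8% with the unrelated Cpa3. The other compared pairs with Cpa3 or Hdc lay lower, between 46.4% (Mcpt1 and Hdc) and 50.8% (Cpa3 and Hdc). Each of the 3 windows holds 1 GATAA: at 98 bases before the start in Mcpt1 and at 102 in Mcpt4, and on the opposite strand at 194 in Cma1.

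Promoter windows were found for 7 of the 10 genes, all but Mcpt2, Tpsb2 and Tpsab1. Each window was searched on both strands for the GATA letters GATAA and the ETS core GGAA. It was also searched for CCGGAA, which contains that core. The E-box CANNTG and its form CACATG were searched as well. GATAA was found in 4 of the 7 genes (Cpa3, Cma1, Mcpt1 and Mcpt4) and in 22.6% of all 32851 windows of that length. GGAA was found in 7 of 7, and in 93.4% of all windows. CANNTG was found in 3 of 7 (Cpa3, Cma1 and Hdc), against 66.2% of all windows. The longer ETS letters CCGGAA were in 0 of 7, against 12.0% of all windows. For the E-box form CACATG the count was 0 of 7, against 12.3%. Hdc, Kit and Gata2 held no GATAA in these windows, counting both listed starts of Kit and of Gata2. A match describes letters only, and no match says only that these letters are not in this window.

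The tryptase genes read close to the limit or under it on all 4 arrays. Tpsb2 encodes mast cell protease 6, and its brightest probe set (1422180_a_at) read 101.2 and 99.5 intensity units in the Ets1-deleted arrays and 90.2 and 103.3 in the controls. The groups overlapped around the limit, with a log2 difference of 0.06 ± 0.12, which turned to -0.042 when control replicate 1 was left out. The second probe set of Tpsb2 (1451802_at) read 58.9 and 65.2 in the Ets1-deleted arrays and 69.9 and 68.2 in the controls, a log2 difference of -0.16 ± 0.09. Both Ets1-deleted values were under both control values there, the opposite direction to the 8 genes counted above, and all 4 values were under the limit. Tpsab1, the gene of mast cell protease 7, read 64.95 and 68.85 in the Ets1-deleted arrays and 70.3 and 67.1 in the controls, also near the floor. RefSeq lists Tpsab1 as a transcribed pseudogene in C57BL/6J, the reference strain. A difference at or under this floor may not be detectable on these arrays.

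**Figure D2:**
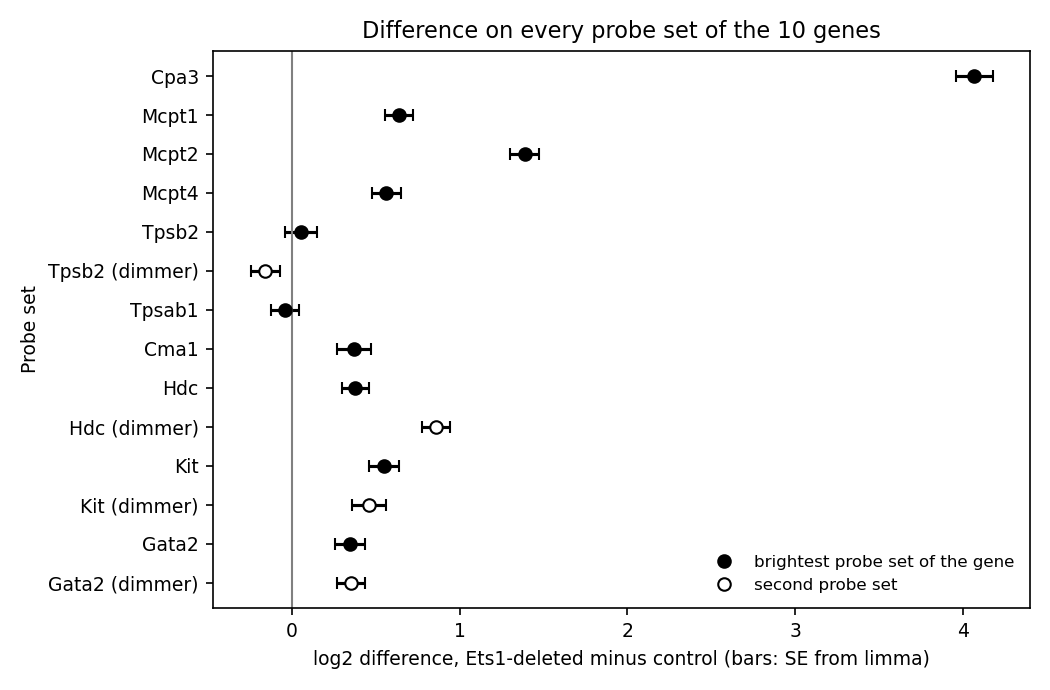
log2 difference (Ets1-deleted minus control) on all 14 probe sets of the 10 genes, with SE from a limma fit of all named probe sets; filled points are the brightest probe set of each gene and open points the second one. Cpa3 stands at 4.07, both probe sets of Kit and Gata2 lie between 0.35 and 0.55, and those of Hdc lie at 0.38 and 0.86.

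Hdc encodes the enzyme that makes histamine from histidine, and it has 2 probe sets of nearly equal mean brightness (104.7 and 104.1 intensity units). On the brighter one, 1451796_s_at, Hdc read 121.5 and 115.4 in the Ets1-deleted arrays and 91.5 and 90.5 in the controls, a log2 difference of 0.38 ± 0.11. On the other, 1454713_s_at, Hdc read 137.8 and 130.7 in the Ets1-deleted arrays and 72.1 and 75.6 in the controls, a log2 difference of 0.86 ± 0.08 (SE here and for the other second probe sets from a fit of all named probe sets). With the array floor subtracted, the brighter one gave 0.84. The groups were apart on both, with the controls under the limit and the Ets1-deleted arrays above it, but the size of the difference was not the same on both. The ending s_at marks probe sets whose probes match more than 1 transcript in the array maker's design. With any 1 array left out the difference on the brighter probe set lay between 0.34 and 0.42.

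Kit encodes the receptor for stem cell factor, the growth factor of mast cells, which early lymphoid progenitors also carry. Its brighter probe set, 1452514_a_at, read 315.2 and 291.2 intensity units in the Ets1-deleted arrays and 214.9 and 199.7 in the controls. The log2 difference was 0.55 ± 0.11, or 1.46-fold. The second probe set, 1415900_a_at, read 205.9 and 199.7 in the Ets1-deleted arrays and 136.3 and 159.6 in the controls, a log2 difference of 0.46 ± 0.10. Neither probe set overlapped between the groups, and the difference of the brighter one stayed between 0.49 and 0.61 with any 1 array left out.

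Gata2 encodes a zinc finger factor of mast cells and blood stem cells. Its brighter probe set, 1428816_a_at, read 137.7 and 151.0 intensity units in the Ets1-deleted arrays and 111.5 and 115.1 in the controls. The second, 1450333_a_at, read 138.7 and 129.6 in the Ets1-deleted arrays and 104.99 and 104.6 in the controls. The log2 differences were 0.35 ± 0.11 and 0.36 ± 0.08, with no overlap on either. With the array floor subtracted, the brighter one gave 0.62. With any 1 array left out it lay between 0.28 and 0.41.

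The measured neighbours of the chymase genes included genes that passed the test and genes that did not. In the order of the RefSeq table, Cma1, Mcpt1, Mcpt2 and Mcpt4 are followed by Mcpt8, Ctsg, the granzyme genes Gzme, Gzmd, Gzmg, Gzmn, Gzmf and Gzmc, and Gzmb at the far end. The levels of Cma2 and Mcpt9, which lie among the chymase genes, were not analysed here. Mcpt8, a protease gene of basophils next to Mcpt4, read 1097 and 1193 intensity units in the Ets1-deleted arrays and 1337 and 1385 in the controls. Its log2 difference of -0.25 ± 0.11 missed the threshold (limma, adjusted p = 0.122).

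Ctsg, the cathepsin G gene of neutrophils and mast cells, read 389.1 and 406.6 intensity units in the Ets1-deleted arrays and 130.4 and 150.1 in the controls. It rose by 1.51 ± 0.12 on the log2 scale (limma, adjusted p = 1.91e-06). Gzme, the granzyme E gene, read 132.0 and 147.7 in the Ets1-deleted arrays and 72.3 and 66.2 in the controls, and rose by 1.01 ± 0.12. Its controls were under the limit, so Gzme was tested through its Ets1-deleted values alone, and with the array floor subtracted the log2 difference was 2.37. Of the 5 tested genes among the 9 measured neighbours, these 2 rose and 0 fell, where 14.0% and 12.8% of all tested genes did. No result is read from this count, since Gzme entered it through its Ets1-deleted values alone. Gzmb, the granzyme B gene, differed by 0.14 ± 0.12 and Gzmc by -0.22 ± 0.12, neither past the threshold (limma, adjusted p = 0.435 and 0.199). In the tryptase cluster on chromosome 17, Tpsg1, beside Tpsb2, read 82.3 and 88.1 in the Ets1-deleted arrays and 85.8 and 87.0 in the controls.

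**Figure D3:**
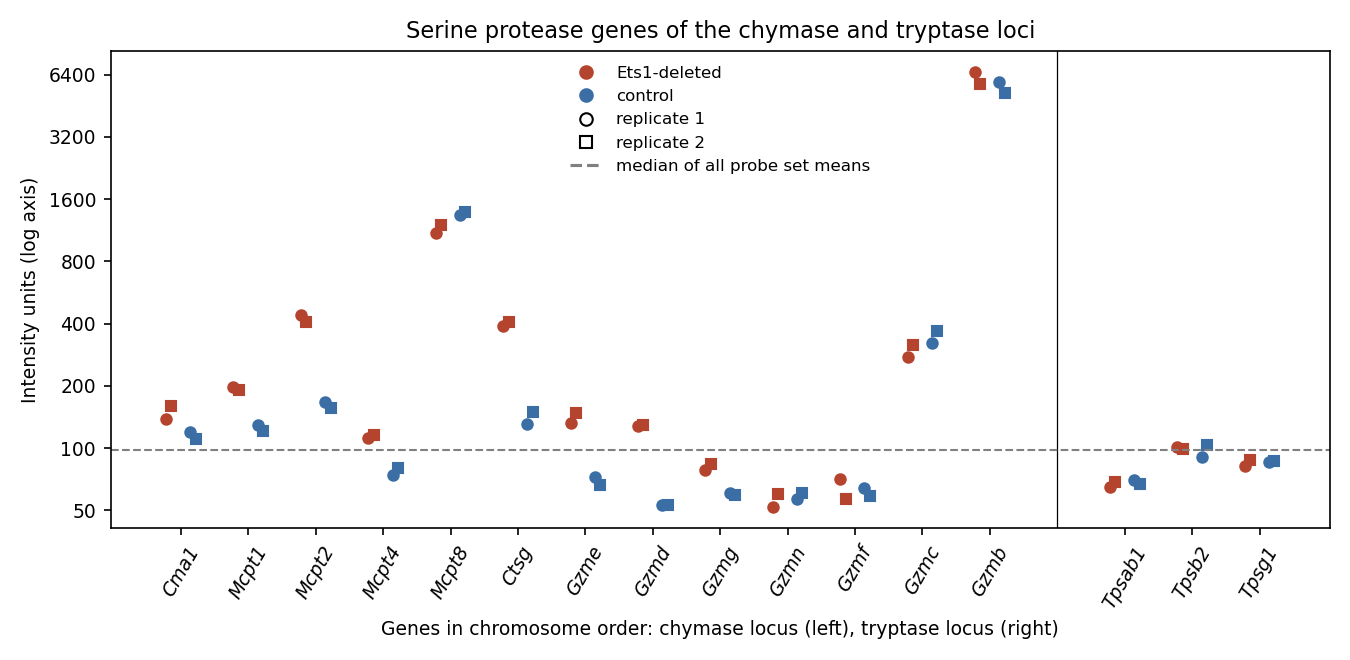
Intensity (log axis, intensity units) of the measured serine protease genes in chromosome order, the chymase cluster left of the line and the tryptase cluster right of it; red points left of each gene's centre are Ets1-deleted arrays, blue points control arrays, circles replicate 1, squares replicate 2, and the dashed line the median of all probe set means. Cma1 to Mcpt4 are higher in Ets1-deleted, Mcpt8 reads 1097 and 1193 in Ets1-deleted and 1337 and 1385 in control, and the tryptase genes stay near the dashed line or under it.

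Other genes known from mast cells were split. Of 25 listed, 20 were on the array under 1 symbol and 11 were bright enough to test. Of these, 5 rose and 1 fell, where 14.0% and 12.8% of all tested genes did. This list and those below were chosen with earlier results of these data known, so nothing is read from their counts. The median log2 difference of the 11 was 0.30. Fcer1a, for the IgE-binding chain of the high-affinity IgE receptor, read 66.4 and 63.7 intensity units in the Ets1-deleted arrays and 55.1 and 60.2 in the controls, under the limit on every array. Ms4a2, for the beta chain of that receptor, read 92.7 and 103.6 in the Ets1-deleted arrays and 72.0 and 63.7 in the controls, above the limit on 1 array and too dim to test. Fcer1g, whose signalling chain many myeloid cells share, read 1666 and 1475 in the Ets1-deleted arrays and 1548 and 1494 in the controls, and the groups overlapped.

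The other members of that list that passed were led by cytokine receptor genes. Csf2rb, the common beta chain of the receptors for IL-3, IL-5 and GM-CSF, rose by 2.34 ± 0.13, and its relative Csf2rb2, the beta chain of the IL-3 receptor, by 1.45 ± 0.12. Alox5, for the first enzyme of leukotriene synthesis, rose by 0.69 ± 0.13, and Hpgds, for a prostaglandin D synthase that ILC2 also express, fell by 1.30 ± 0.11. Of Csf2rb, Alox5 and Hpgds, whose controls averaged above the limit, Alox5 had the weakest call (limma, adjusted p = 0.00213). With any 1 array left out the log2 differences lay between 2.15 and 2.53 for Csf2rb and 1.33 and 1.57 for Csf2rb2. They lay between 0.52 and 0.86 for Alox5 and -1.35 and -1.26 for Hpgds. Slc18a2, for the transporter that loads amines into granules, read 197.1 and 203.5 intensity units in the Ets1-deleted arrays and 139.5 and 159.96 in the controls. It rose by 0.42 ± 0.12, a call lost without Ets1-deleted replicate 2 (limma, log2 difference range with 1 array left out 0.32 to 0.52) or control replicate 1. Cd33 was the fifth gene that rose. The controls of Cd33 and Csf2rb2 averaged under the limit, and with the array floor subtracted the log2 differences were 1.20 for Cd33, 2.40 for Csf2rb2, 1.11 for Alox5 and 0.63 for Slc18a2.

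Around the proteases, 6 of 13 tested genes of granule matrix and protease processing rose and 0 fell. For this list and those around Hdc, Kit and Gata2, the shares over all tested genes are 14.0% higher and 12.8% lower. Ctsd differed by -0.34 ± 0.12 and missed the threshold (limma, adjusted p = 0.0600). With quantile normalization repeated, 1 gene of the list was called lower. Srgn, the serglycin gene, read 7632 and 8226 intensity units in the Ets1-deleted arrays and 5609 and 5489 in the controls, and rose by 0.51 ± 0.11. It is also abundant in lymphocytes. Ctsc, for the protease that activates chymases and granzymes, rose by 0.91 ± 0.12, although its bright probe sets ranged down to 0.13. Ctsl rose by 0.73 ± 0.11 and Hs2st1, for a heparan sulfate sulfotransferase, by 0.57 ± 0.11, with a bright probe set of Hs2st1 at 0.05. Of the 6 calls, 4 held with any 1 array left out.

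Around Hdc, 4 of 12 measured genes of histamine and serotonin handling were bright enough to test. Odc1, for ornithine decarboxylase of polyamine synthesis, rose by 0.78 ± 0.12, with its bright probe sets between 0.23 and 0.78. Tph1, for the first enzyme of serotonin synthesis, read 3038 and 2418 intensity units in the Ets1-deleted arrays and 4312 and 4086 in the controls and fell by 0.63 ± 0.13. With Slc18a2 these made 2 that rose and 1 that fell.

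Around Kit, signalling genes went both ways: of 25 tested, 6 rose and 6 fell, and 7 in all passed without control replicate 1. Of the 12 calls, 6 held with any 1 array left out. Gab2, an adaptor that acts below KIT and the IgE receptor, rose by 1.86 ± 0.11, with bright probe sets between 0.87 and 1.86. The kinase gene Syk rose by 0.65 ± 0.11, although 1 of its bright probe sets stood at -0.08. Dok2, for an adaptor that restrains RAS signalling, fell by 1.06 ± 0.12, and the phospholipase gene Plcg1 fell by 0.76 ± 0.12. Kitl, the gene of the KIT ligand, differed by 0.30 ± 0.12 and missed the threshold (limma, adjusted p = 0.0804).

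Around Gata2, 9 of 22 tested transcription factor genes of mast cells and GATA partners rose and 3 fell. Those that fell were Ldb1 (-0.56), Hes1 (-0.42) and Ikzf1 (-0.37). With any 1 array left out Ldb1 lay between -0.61 and -0.51, Hes1 between -0.52 and -0.31 and Ikzf1 between -0.46 and -0.27. Mitf, a factor that drives Kit and protease genes in mast cells, read 140.4 and 125.4 intensity units in the Ets1-deleted arrays and 82.8 and 83.5 in the controls. It rose by 0.67 ± 0.11. The controls lay under the limit, so Mitf was tested through its Ets1-deleted values alone and no p-value is given. Of the 9 that rose, 5 had controls averaging under the limit and so were tested through their Ets1-deleted values alone. Bhlhe40 rose by 1.66 ± 0.13, Nfe2, of the erythroid and megakaryocyte lineages, by 1.33 ± 0.11, Lmo2, a partner in GATA complexes, by 0.96 ± 0.11, and the ETS family gene Erg by 0.84 ± 0.13. With any 1 array left out the log2 differences lay between 1.49 and 1.83 for Bhlhe40 and 1.28 and 1.39 for Nfe2. They lay between 0.90 and 1.03 for Lmo2 and 0.68 and 0.99 for Erg. Those fits kept the genes chosen on all 4 arrays, so they are no separate check of the filter. With the array floor subtracted the log2 differences were 2.53 for Nfe2, 2.10 for Lmo2, 1.90 for Erg and 1.5 for Mitf, all with controls under the limit, and 1.80 for Bhlhe40. Gata1, the other GATA factor of mast cells, read 120.2 and 98.6 in the Ets1-deleted arrays and 109.3 and 136.3 in the controls, and Gata3 differed by 0.08 ± 0.11.

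Markers of other blood cells moved in the same arrays as the 10 genes, and their part in the results above was not tested. For all these marker lists, the shares over all tested genes are 14.0% higher and 12.8% lower. Macrophage and dendritic cell markers rose in 6 of 6 tested cases of 10 measured. Their summed levels were 2492 to 2719 intensity units in the Ets1-deleted arrays and 1553 to 1599 in the controls. Itgax ranged from 0.28 to 0.48 with 1 array left out and Lyz2 from 0.40 to 0.60, and neither call held in every such fit. Itgam (-0.03), Fcgr1 (0.03), Flt3 (0.03) and Cd14 (0.11) were too dim to test. Neutrophil markers rose in 5 of 6 tested cases of 9 measured, with sums of 2363 to 2383 against 1439 to 1615. Without control replicate 1, 3 of these 5 calls held, Lcn2 and Mpo being lost. Of the macrophage list, Mrc1 rose by 1.17, Csf1r by 1.01 (bright probe sets between 0.40 and 1.01), Cd68 by 0.90 and Adgre1 by 0.67 on the log2 scale. Adgre1, with controls under the limit, had 1.63 with the array floor subtracted. Of the neutrophil list, S100a9 rose by 1.14, S100a8 by 0.65, Prtn3 by 0.52 and Lcn2 by 0.45, and Lcn2 was also lost without Ets1-deleted replicate 1. Mpo, at 0.36, was also lost without Ets1-deleted replicate 2 or control replicate 2. With the array floor subtracted Lcn2 had 0.87. Ngp, at 0.17, was tested and not called. Camp (-0.03), Elane (0.18) and Ltf (0.17) were too dim to test, and their groups overlapped. Most of the difference in the neutrophil sums came from S100a9 and S100a8. Their group means were 846.5 and 562.5 intensity units in the Ets1-deleted arrays and 383.9 and 359.8 in the controls. Of 7 measured eosinophil markers, with sums of 624.3 to 673.3 against 486.2 to 493.0, Prg2 and Siglecf reached the limit, through their Ets1-deleted values alone. Their count is therefore no result. Prg2 read 123.6 and 148.4 intensity units in the Ets1-deleted arrays and 60.2 and 65.3 in the controls. Siglecf read 123.1 and 129.4 in the Ets1-deleted arrays and 95.2 and 95.3 in the controls. The Siglecf call was lost without Ets1-deleted replicate 2 or either control.

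Basophil markers gave sums of 3491 to 3493 intensity units in the Ets1-deleted arrays and 4147 to 4311 in the controls, but the members went both ways. Group means, Ets1-deleted against control, were 628.9 against 1005 for Il4, 365.0 against 730.8 for Itga2 and 1145 against 1361 for Mcpt8. They were 328.0 against 93.96 for Cd200r3 and 98.1 against 67.9 for Ms4a2. Of 5 tested, Cd200r3, a receptor gene of basophils and mast cells, rose by 1.82 ± 0.15 on its brightest probe set and differed by 0.91 on the other bright one, while Itga2 and Il4, which lymphocytes also express, fell by 1.02 and 0.68. The controls of Cd200r3 averaged under the limit, and with the array floor subtracted the difference was 2.96. Of 4 tested T cell markers of 9 measured, 3 rose, Cd3e by 3.28, Cd3d by 2.58 and Cd3g by 0.50. The sums of the list were 4716 to 4755 against 2526 to 2561, most of it from these 3 genes. Cd6, at 0.16, was tested and not called. Cd4 (-0.12), Cd5 (0.09), Cd8a (0.07), Cd8b1 (0.02) and Trat1 (0.67) were too dim to test. Early progenitor markers rose in 2 of 4 tested cases of 7 measured, Cd34 by 0.76 and Hlf by 0.43, the Hlf call being lost without Ets1-deleted replicate 1 or control replicate 2, and with the array floor subtracted (limma, adjusted p = 0.0833). The controls of Cd34, and of Cd3e among the T cell markers, averaged under the limit, and with the floor subtracted the differences were 1.49 for Cd34 and 4.6 for Cd3e. The early progenitor list had sums of 2359 to 2838 against 1932 to 2081, most of it from Hlf (2135 and 1752 against 1541 and 1329). Of 6 tested stromal markers of 12 measured, 3 fell, Pdgfrb at -0.85, Cxcl12 at -0.41 and Vcam1 at -0.34, with sums of 1762 to 1929 against 2305 to 2332. The Cxcl12 call was lost without Ets1-deleted replicate 1 or control replicate 2, and with the array floor subtracted (limma, adjusted p = 0.0506), and the Vcam1 call without any 1 of the 4 arrays. B cell markers had sums of 601.4 to 609.3 in the Ets1-deleted arrays and 577.1 to 615.2 in the controls, which overlap.

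**Figure D4:**
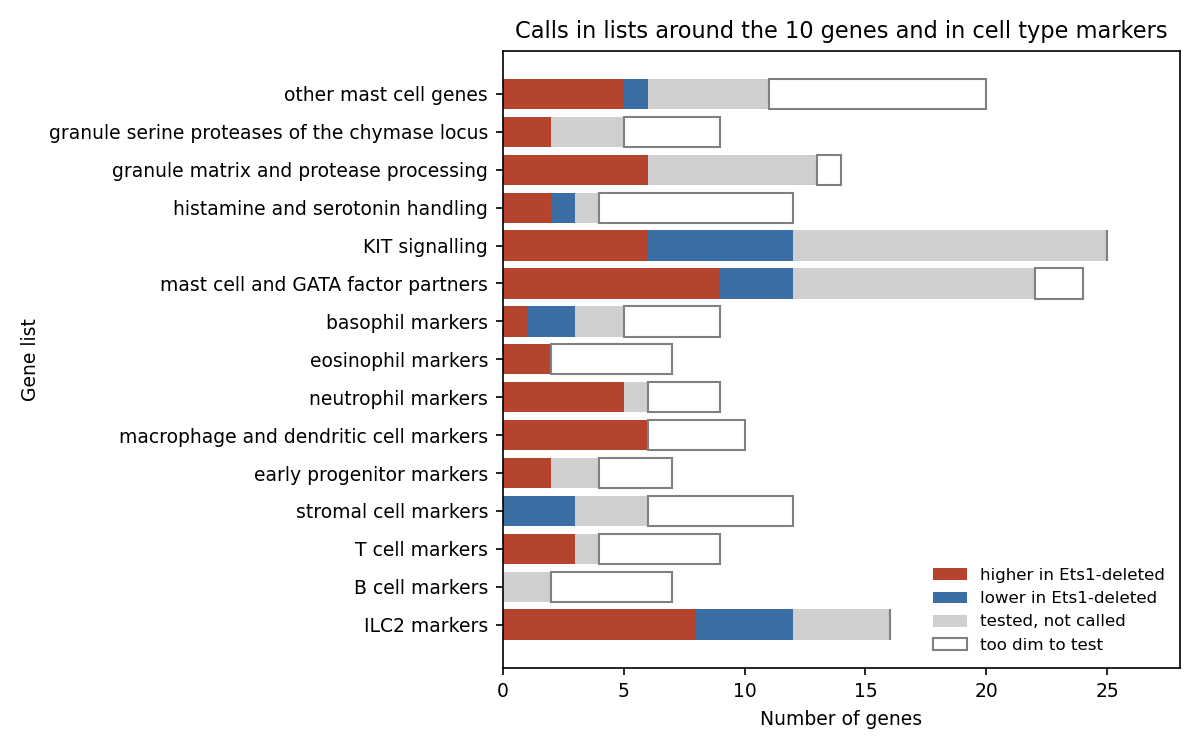
Number of genes in each list that were higher (red), lower (blue) or not called (grey) in the Ets1-deleted arrays against the controls at an adjusted p of 0.05 in limma, with genes too dim to test in white. Of the other mast cell genes 5 rose and 1 fell with 9 of 20 too dim, and KIT signalling genes split into 6 higher and 6 lower.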

How the data were processed

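RNA of sorted ICOS-positive cells was turned into biotinylated cRNA after amplification and put on Affymetrix arrays (labels' protocols). Per the submitters' processing notes, the authors made the deposited intensity values with RMA, which by design background-corrects, quantile-normalizes and summarises probes. Values of 39.5 to 23291 were read as linear intensity and taken to log2; the linear scale is an inference from the values. No version of RMA is stated in the labels.

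Symbols came from GEO's platform table, where 34958 of 45101 probe sets carry exactly 1, and 189 of 211 listed genes were found. The test was limma's lmFit and eBayes (version 3.58.1 under R 4.3.3) on the log2 difference, Ets1-deleted minus control. Its two-sided p-values were adjusted over 10876 genes (Benjamini-Hochberg, called under 0.05), with 2 residual and 9.54 prior degrees of freedom. It was tested on simulated data. The members and lists were chosen with earlier results of these data known.

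Named were the 10 genes, a set of defining genes (such as Fcer1a, Gata1 and Mitf), and from each list up to 4 called genes of smallest p. Neighbours in the protease clusters were named by position. Cd33, Mpo, Ctsd, Ldb1, Hes1 and Ikzf1 were named after their values were seen. So were the further named members of the macrophage, neutrophil and T cell lists. Tested genes whose controls average under the limit reached it through their Ets1-deleted values. Alternatives were other normalizations, filters, probe set rules, background, variance models, a threshold of 0.1, a replicate block and leaving out each array. RefSeq windows of 250 bases were searched for motifs; their coordinates are those of GRCm38.p6.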

Additional observations from a re-analysis of the deposited data

How the results depend on the processing

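Over 15 settings, the log2 differences of the 10 genes were recomputed 116 times. Of these, 106 kept their direction and, for tested genes, their side of the threshold. The filters, variance models, replicate block and looser threshold cannot change the log2 difference of a probe set. Under those settings only the side of the threshold could move, so the kept direction there shows nothing. In 9 cases, all with 1 array left out, Cma1, Hdc or Gata2 no longer passed, and Tpsb2 reversed to -0.042 without control replicate 1 (range -0.042 to 0.15 with 1 array left out). Mcpt4 and Tpsab1, too dim for the filter, had a value only without it, so each was compared with itself and could not differ. Of 120 recomputed counts, 112 stayed within 1.5 times. All 8 others come from fewer or more genes tested or from fewer arrays. Under the stricter filter (70th percentile, 197 intensity units), 3 of 3 tested members, 2 other mast cell genes, 1 chymase locus gene and 6 GATA partners were called; without a filter 4 chymase locus genes were. With 1 array left out, 4 to 6 members and 7 to 11 KIT signalling genes were called; these fits lend the remaining single array the spread of the opposite genotype. With the replicate block, 3298 genes and 7 members were called, against 2918 and 7 without it; same-numbered arrays correlated by 0.17 in their deviations, and with 2 arrays a group the numbers are not shown to pair them. The array floor limits what can be seen of Tpsb2, Tpsab1 and Mcpt4.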

Other observations

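The GATAA of Mcpt1 and Mcpt4 runs directly into a GGAA, giving the 9 letters GATAAGGAA, a string searched for only after the windows had been seen. It begins 98 bases before the start of Mcpt1 and 102 before that of Mcpt4, on the sense strand of both. On either strand it occurs in 74 of the 32851 windows (0.225%), which belong to 73 of 27025 genes. In the chymase and tryptase clusters 14 genes have a window, and Mcpt1 and Mcpt4 are the 2 that hold it; the pair shares 82.8% of its bases there. The windows of Cma1, Gzme, Gzmg, Gzmf and 1 start of Tpsg1 hold a GATAA without it, and that of Ctsg holds no GATAA.

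Among granzyme genes under the test limit, Gzmd read 128.5 and 130.1 intensity units in the Ets1-deleted arrays and 52.98 and 53.25 in the controls, and Gzmg 78.7 and 83.9 against 60.6 and 59.6. Gzmn, beside them, read 52.1 and 59.8 in the Ets1-deleted arrays and 56.97 and 60.7 in the controls. Gzmf read 71.1 and 57.0 in the Ets1-deleted arrays and 64.3 and 58.96 in the controls, and the groups of both genes overlapped. These granzyme genes are close relatives, and whether probes bind more than 1 of them was not tested.

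Maoa, for a monoamine oxidase, was too dim to test and read 119.3 and 104.0 intensity units in the Ets1-deleted arrays and 71.1 and 68.1 in the controls. Hrh2, for a histamine receptor, read 139.6 and 139.0 in the Ets1-deleted arrays and 141.1 and 143.5 in the controls. Maoa, Hrh2, Gzmd, Gzmg, Gzmn and Gzmf were named after their values were seen.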
